A study of Mus musculus with 10 samples.

Results

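The genes described here encode the high mobility group (HMG) chromatin proteins of the Hmgn, Hmga and Hmgb families. All probe sets that the platform annotation gives to Hmgn1, Hmgn2, Hmgn3, Hmga1, Hmga2, Hmgb1, Hmgb2 or Hmgb3 were taken, each on its own. This gave 20 of the 45101 probe sets on the array, for 7 of the 8 symbols, among 18195 genes that have a probe set with a single symbol. Hmga1 had no probe set under that symbol and was not analysed here. Hmgn1 had 4 probe sets, Hmga2 4, Hmgb1 5, Hmgb2 3, Hmgn3 2, and Hmgn2 and Hmgb3 had 1 each. The symbols were chosen by their family with the signal of these same arrays in view, so the p-values below describe the members and are not independent evidence about the family.

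Mouse marrow progenitors had been immortalized by an introduced oncogene and grown in medium with stem cell factor (SCF) and without GM-CSF, and total RNA of each culture was hybridized to an Affymetrix mouse genome array. The MLL-ENL culture, immortalized by a fusion of the histone methyltransferase MLL with ENL, has 1 array and no replicate. NUP98-NSD1, a fusion of a nucleoporin with a histone H3 lysine methyltransferase, is held by 3 clones, and HoxA9 coexpressed with its cofactor Meis1 by 3 clones. HoxA9 alone, a homeobox gene, is held by the 3 clones that serve as the baseline. Clones carry numbers, but nothing in the labels ties them to different mice, and the p-values measure only the spread between these clones, which may be technical.

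HMGN proteins bind nucleosomes and compete with linker histone for chromatin. HMGA proteins bind the minor groove of AT-rich DNA through AT-hook motifs. Hmga2 is known for its high level in embryonic tissue and in fetal blood stem cells, where the RNA-binding protein Lin28 blocks the let-7 microRNAs that repress it. HMGB proteins bend DNA with a pair of HMG boxes, and HMGB1 released from cells also acts as an alarm signal on surface receptors. Hmgb3 is known in mice as a gene of primitive blood progenitors.

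RefSeq (GRCm38.p6) start sites gave a window of 250 bases upstream for Hmgn1, Hmgn2, Hmga2, Hmgb1, Hmgb2 and Hmgb3. An entry for Hmgn3 was not used here. The windows of Hmgn1 (chr16:96127726-96127975, minus strand), Hmga2 (chr10:120476470-120476719, minus strand), Hmgb2 (chr8:57511593-57511842, plus strand) and Hmgb3 (chrX:71555667-71555916, plus strand) are printed 5′ to 3′. The first pair belong to genes whose signal differed widely between arrays, Hmgb2 to a gene with nearly level signal, and Hmgb3 to a gene highest in the HoxA9+Meis1 clones. Capitals mark the CCAAT box.
Hmgn1: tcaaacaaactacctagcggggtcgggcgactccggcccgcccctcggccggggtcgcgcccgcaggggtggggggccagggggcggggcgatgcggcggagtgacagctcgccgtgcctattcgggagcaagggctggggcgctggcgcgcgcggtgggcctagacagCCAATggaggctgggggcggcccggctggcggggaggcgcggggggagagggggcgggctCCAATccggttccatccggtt
Hmga2: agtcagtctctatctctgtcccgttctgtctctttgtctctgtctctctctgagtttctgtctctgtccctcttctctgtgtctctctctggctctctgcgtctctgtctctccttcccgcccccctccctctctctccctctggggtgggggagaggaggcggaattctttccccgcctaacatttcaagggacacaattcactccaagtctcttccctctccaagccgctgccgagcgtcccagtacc
Hmgb2: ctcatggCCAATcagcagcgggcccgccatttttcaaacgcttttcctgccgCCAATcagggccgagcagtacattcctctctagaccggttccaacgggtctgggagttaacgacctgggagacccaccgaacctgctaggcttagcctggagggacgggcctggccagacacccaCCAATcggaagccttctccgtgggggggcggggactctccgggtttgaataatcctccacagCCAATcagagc
Hmgb3: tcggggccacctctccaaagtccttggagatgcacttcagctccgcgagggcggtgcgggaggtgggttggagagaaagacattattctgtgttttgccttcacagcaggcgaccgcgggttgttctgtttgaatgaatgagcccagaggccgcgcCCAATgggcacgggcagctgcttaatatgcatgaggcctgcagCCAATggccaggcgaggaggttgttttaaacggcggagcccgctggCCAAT

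Searched on both strands, CCAAT occurred 2 times in the Hmgn1 window, 0 times for Hmga2, 4 times for Hmgb2 and 3 times for Hmgb3. It occurred 0 times for Hmgn2 and, at the Hmgb1 start sites listed, 3 times in one window and 0 times in the other. Of 32851 promoter windows of the same length, 33.8% held CCAAT. The GC box GGGCGG, present in 32.7% of windows, occurred 4 times for Hmgn1 and 1 time each for Hmga2, Hmgb2 and Hmgb3. TGACAG, a core of Meis binding sites, was found 1 time in the Hmgn1 window and in 15.9% of all windows, and TATAAA in none of the printed windows and in 12.4% of all. The Hmga2 window held a run of 23 pyrimidines, and 1.83% of windows held a run at least as long. No match overlapped another. A match is a description of the letters, not a site or a cause.

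Signals are the deposited intensities, scaled alike on all arrays. A probe set was kept when its signal passed 369, the 40th percentile of all values, on at least 3 of the 10 arrays. This kept 30983 probe sets, 19 of the 20 HMG probe sets among them. The 1 left out was Hmgn1 1422496_at, at 38.9 to 448. Differences are on the log2(signal + 32) scale, and a probe set was called at an adjusted p under 0.05 in limma over all kept probe sets.

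All 13 listed myeloid progenitor markers were kept in these cultures. They summed to 1012720 on the MLL-ENL array, 907289 to 1081000.0 in NUP98-NSD1, 595523 to 607621 in HoxA9+Meis1 and 677794 to 724826 in HoxA9 clones. The brightest in NUP98-NSD1 clones were Mpo, Ctsg, Elane and Prtn3. Between NUP98-NSD1 and HoxA9+Meis1, 8 markers were called higher and 1 lower, against 14.2% and 18.5% of all 14234 genes. Not all followed the sums: Cd34 averaged 24618 in NUP98-NSD1, 49234 in HoxA9+Meis1 and 679 in HoxA9 clones. The 6 kept mast cell markers summed to 40933 to 213838 in NUP98-NSD1 clones, against 2618 to 5461 in HoxA9+Meis1 clones, 3178 to 3459 in HoxA9 clones and 2581 on the MLL-ENL array. The 6 kept B cell markers summed to 9871 and 12875 in HoxA9+Meis1 clones 2 and 1, and to 1420 to 3734 on every other array. Hybridization controls averaged 14.01 to 14.13 (log2) on the NUP98-NSD1 and MLL-ENL arrays, against 13.18 to 13.42 on the HoxA9+Meis1 and HoxA9 arrays. For these controls NUP98-NSD1 minus HoxA9 was 0.77 (log2). The labels name no batch. The arrays are only seen to fall on 2 sides by these controls, and such a difference and the oncogene cannot be told apart in comparisons across that line. In RNA of whole cultures, fewer cells of a type and less RNA per cell cannot be told apart.

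Between NUP98-NSD1 and HoxA9 clones, 7 of the 19 kept HMG probe sets were called higher, 0 lower, and 12 were not called. Of all kept probe sets, 29.1% were called, 12.4% higher and 16.7% lower. These were 3844 higher and 5166 lower, and with arrays set to a common median 4487 higher and 2476 lower. The called probe sets were 3 of Hmgn1, 3 of Hmga2 and the one annotated to Hmgn2. The 2 groups did not overlap for 12 of 19 probe sets, against 43.9% of all. The median difference was 0.27 over the HMG probe sets and -0.14 over all kept probe sets. Setting all arrays to a common median moved the median over all kept probe sets to 0.05.

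Between NUP98-NSD1 and HoxA9+Meis1 clones, 2 HMG probe sets were called higher and 4 lower, with 13 not called. Of all kept probe sets, 31% were called, 13.8% higher and 17.2% lower. These were 4289 higher and 5315 lower, and with a common median 4523 higher and 2876 lower. Groups did not overlap for 10 of 19, against 45.1% of all. Between HoxA9+Meis1 and HoxA9 clones, 1 was called higher (Hmgb3), 0 lower and 18 were not called, with 6.88% of all kept probe sets called, 3.39% higher and 3.49% lower. Groups did not overlap for 11 of 19, against 28.6% of all. The 3 comparisons share their groups pairwise, so their counts are not independent of each other.

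**Figure D1:**
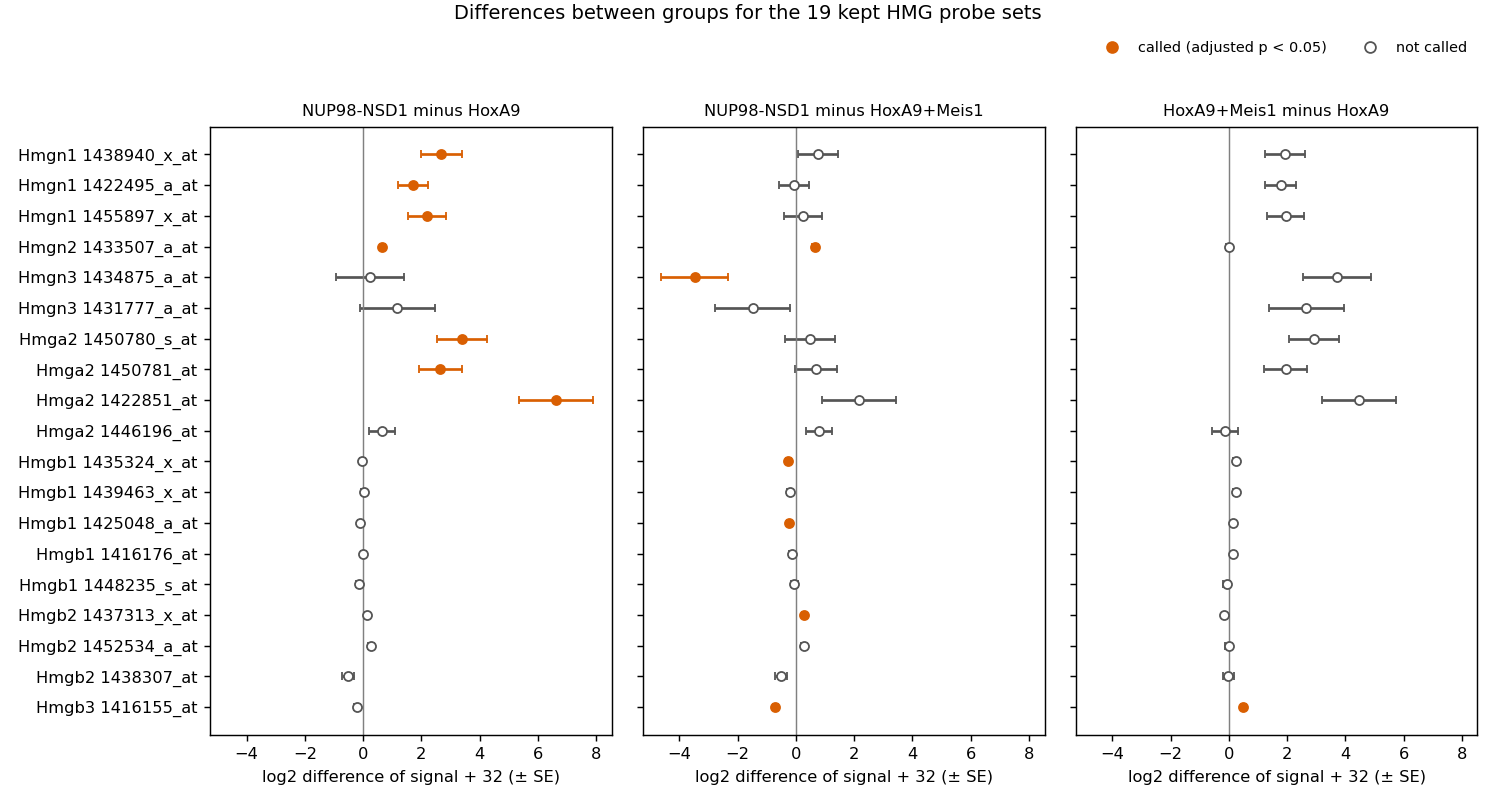
Log2 differences (x axis, log2 of signal + 32, with SE bars) of the 19 kept HMG probe sets, 1 row each, in the 3 comparisons of replicated groups. Filled points are called at an adjusted p under 0.05; the wide bars belong to Hmgn1, Hmgn3 and Hmga2, and the Hmgb rows lie near 0. Labels give 1 member symbol, although the Hmgb1 and Hmgn2 probe sets also carry other symbols.

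Hmgn1 encodes a nucleosome-binding protein that loosens compact chromatin. Probe set 1438940_x_at read 525 on the MLL-ENL array, 84614, 93608 and 67873 in NUP98-NSD1 clones 1 to 3, 43682, 46958 and 53945 in HoxA9+Meis1 clones, and 32426, 2683 and 22808 in HoxA9 clones. The 4 groups did not overlap: NUP98-NSD1 stood highest, then HoxA9+Meis1, then HoxA9, and MLL-ENL far below. Probe set 1422495_a_at read 432 in MLL-ENL, 47280, 47895 and 40375 in NUP98-NSD1, 40613, 48645 and 52236 in HoxA9+Meis1, and 28730, 4412 and 20148 in HoxA9. Probe set 1455897_x_at read 722 in MLL-ENL, 52219, 54379.0 and 41741 in NUP98-NSD1, 33609, 42938 and 49153 in HoxA9+Meis1, and 26381, 2639 and 17559 in HoxA9. On these 2 probe sets NUP98-NSD1 and HoxA9+Meis1 overlapped, both stood above every HoxA9 clone, and MLL-ENL was lowest. NUP98-NSD1 minus HoxA9+Meis1 was 0.76, -0.06 and 0.25 (log2) in the order above, none called (limma adjusted p 0.437 to 0.945). Only 1438940_x_at was called with the compared groups alone (adjusted p = 0.00378).

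Hmgn1 was higher in NUP98-NSD1 than in HoxA9 clones on all 3 kept probe sets. The log2 differences were 2.69 ± 0.70 (SE, limma adjusted p = 0.0163) on 1438940_x_at, 1.72 ± 0.52 (adjusted p = 0.0309) on 1422495_a_at and 2.19 ± 0.64 (adjusted p = 0.0271) on 1455897_x_at. HoxA9 clone 2 was the lowest replicated clone, 4.54 to 8.41 times below the nearest other HoxA9 clone. Folds of this kind are ratios of signal + 32. Of all kept probe sets, 128 (0.413%) had HoxA9 clone 2 at least 4-fold below both other clones. Without HoxA9 clone 2, the differences shrank to 1.58, 0.90 and 1.19 and all 3 remained called. Without NUP98-NSD1 clone 2 none of the 3 was called (2.59, 1.67 and 2.12, adjusted p 0.0514 to 0.0804). Without NUP98-NSD1 clone 1, 1422495_a_at (adjusted p = 0.0764) and 1455897_x_at (adjusted p = 0.0690) were not called, and without clone 3, 1422495_a_at was not (adjusted p = 0.0534). Robust eBayes ended all 3 Hmgn1 calls. Those on 1422495_a_at and 1455897_x_at were also lost without an eBayes trend and with the compared groups alone (adjusted p up to 0.0907).

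Against HoxA9, the HoxA9+Meis1 clones differed by 1.93, 1.78 and 1.95 on the 3 Hmgn1 probe sets, with adjusted p of 0.147, 0.0719 and 0.109, and were not called. Every HoxA9+Meis1 clone was nonetheless above every HoxA9 clone. Without HoxA9 clone 2 the differences were 0.82, 0.96 and 0.94, smaller but called (adjusted p 0.0117 to 0.0339). Without HoxA9 clone 1 they were 2.61, 2.31 and 2.60, also called (adjusted p 0.0195 to 0.0470). Hybridization controls of both groups lay within 13.18 to 13.42 (log2).

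**Figure D2:**
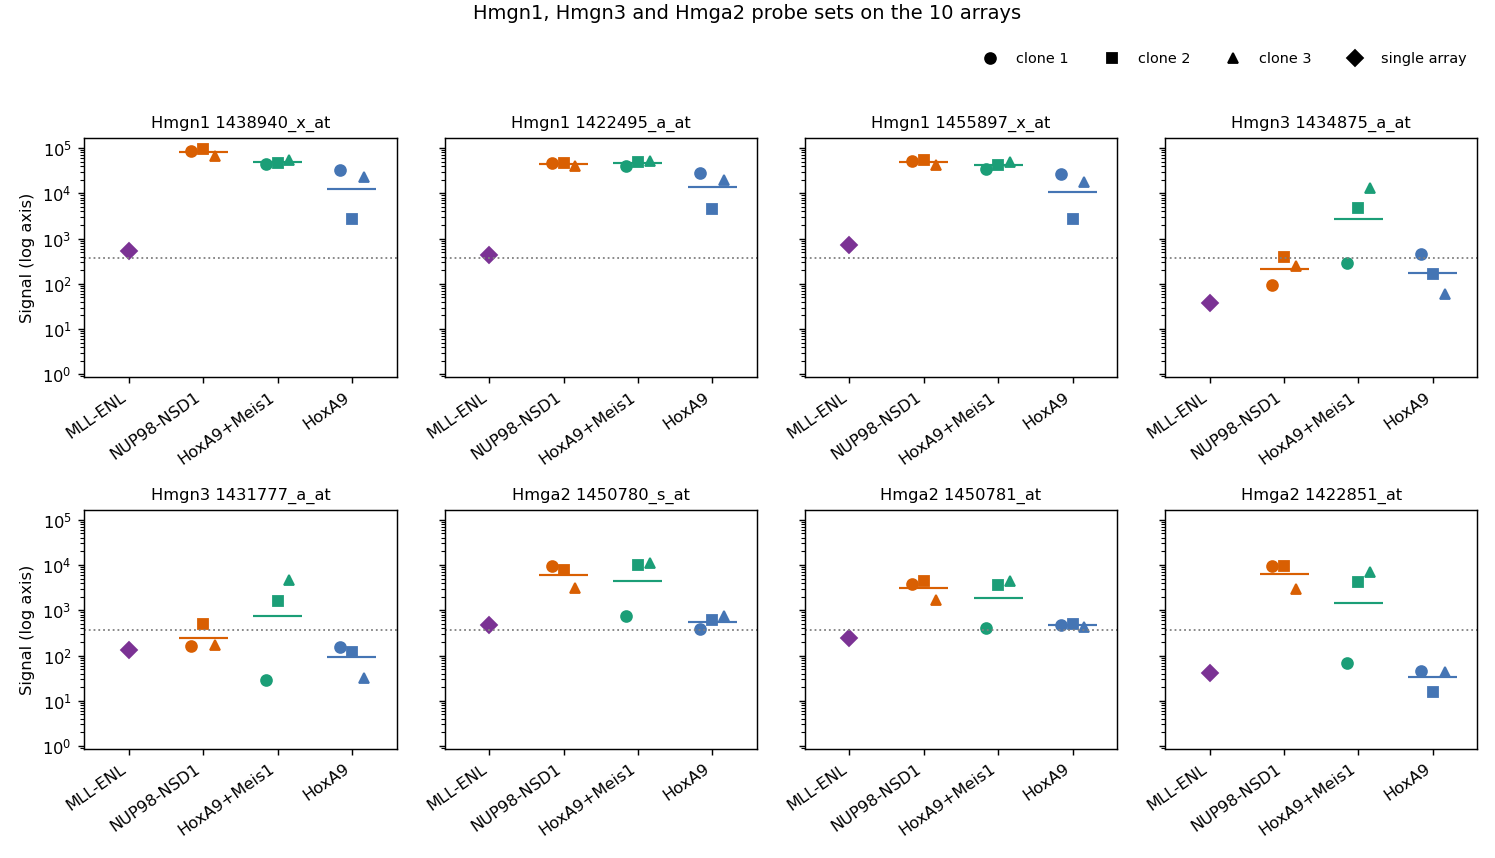
Signal (y axis, log scale) of 8 probe sets of Hmgn1, Hmgn3 and Hmga2 on each of the 10 arrays, by oncogene. Symbols are clones, the diamond is the single MLL-ENL array, short lines are group means on the log2(signal + 32) scale, and the dotted line is the filter level of 369. Hmgn1 is low on the MLL-ENL array and in HoxA9 clone 2, and Hmga2 and Hmgn3 are low in HoxA9+Meis1 clone 1.

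The MLL-ENL array lay below all 9 others for 9 of the 19 HMG probe sets, against 18.9% of all kept probe sets, and above all 9 for 0, against 9.2%. With readings under the filter level set to it, the count below all 9 was 7, against 11.6% of all, since Hmgn3 1434875_a_at and Hmga2 1446196_at have no order there. A value of 1 array has no test. Hmgn1 on the MLL-ENL array was -7.19, -6.60 and -6.03 (log2) from the NUP98-NSD1 mean on 1438940_x_at, 1422495_a_at and 1455897_x_at. It was -6.43, -6.66 and -5.78 from the HoxA9+Meis1 mean, and -4.50, -4.88 and -3.83 from the HoxA9 mean. All 3 readings, 432 to 722, remained above the filter level of 369. Macrophage markers summed to 63870.3 on the MLL-ENL array, 28661 to 36795 in NUP98-NSD1, 28456 to 61673 in HoxA9+Meis1 and 21049 to 31801 in HoxA9 clones, and their part in these values was not tested.

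By a 2-fold rule, 8 HMG probe sets were lower in MLL-ENL than the NUP98-NSD1 mean, against 12.6% of all kept probe sets. The count was 10 against the HoxA9+Meis1 mean (20% of all) and 6 against the HoxA9 mean (19.1% of all), and 0 were 2-fold higher in any of these, against 5.35%, 7.22% and 4.99% of all in the same order. With readings under the filter level set to it, the counts lower were 6 (4.69% of all), 9 (9.92%) and 4 (8.85%). Hmgn1 contributed 3 probe sets to each count. Besides Hmgn1, the probe sets below all 9 arrays were Hmgn3 1434875_a_at, Hmga2 1450781_at and 1446196_at, Hmgb2 1438307_at, Hmgb3, and 1425048_a_at, annotated to Hmgb1 together with Gm21596.

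Hmgn2, a close relative of Hmgn1, is represented by 1433507_a_at, which is annotated to Hmgn2 together with Gm7931, Gm9525 and Gm6750. It read 118970 in MLL-ENL, 123001, 122156 and 152824 in NUP98-NSD1, 84409, 81149.6 and 85970 in HoxA9+Meis1, and 81736, 87343 and 82818 in HoxA9. The MLL-ENL and NUP98-NSD1 arrays were high, and the other 6 were low and overlapped. The probe set was 0.65 ± 0.09 higher in NUP98-NSD1 than in HoxA9 clones (adjusted p = 0.000543) and 0.65 ± 0.09 higher than in HoxA9+Meis1 clones (adjusted p = 0.000505). HoxA9+Meis1 and HoxA9 differed by 0.00 ± 0.09.

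This split of Hmgn2 signal follows the hybridization controls. The brightest probe set of each array read 225137 to 268316 on the NUP98-NSD1 and MLL-ENL arrays, against 138637 to 162300 on the HoxA9+Meis1 and HoxA9 arrays. With quantile normalization, the Hmgn2 difference from HoxA9 was 0.13 (adjusted p = 0.0835) and no longer called, and that from HoxA9+Meis1 was 0.31 and still called. Oncogene and this difference between arrays cannot be told apart here.

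Hmgn3, the family member known in mice for a role in insulin secretion, was bright in only 2 cultures. Probe set 1434875_a_at read 38.0 in MLL-ENL, 94.6, 382 and 246 in NUP98-NSD1, 286, 4832 and 12862 in HoxA9+Meis1 clones 1 to 3, and 459, 163 and 60.8 in HoxA9. Clones 2 and 3 of HoxA9+Meis1 stood above all other arrays, and clone 1 lay within the range of the HoxA9 and NUP98-NSD1 clones. The second probe set, 1431777_a_at, read 28.7, 1590 and 4663 in the HoxA9+Meis1 clones and at most 494 on the other 7 arrays.

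For Hmgn3, HoxA9+Meis1 clone 1 was under the filter level. Set to that level, it was at least 12.1 times (1434875_a_at) and at least 4.04 times (1431777_a_at) below the nearer of its sister clones, as a ratio of signal + 32. The SD of log2 among HoxA9+Meis1 clones was 2.77 on 1434875_a_at, and 19 of 30983 probe sets had a larger one, again with clone 1 under the filter level. On 1434875_a_at the NUP98-NSD1 clones were -3.47 ± 1.16 from the HoxA9+Meis1 clones (adjusted p = 0.0432), although the groups overlapped through clone 1. That call was lost on leaving out NUP98-NSD1 clone 1, 2 or 3 or HoxA9+Meis1 clone 2 or 3 (-2.35 to -3.85, adjusted p 0.0634 to 0.155), and without HoxA9+Meis1 clone 1 it was -5.02 (adjusted p = 0.00262). It was also lost under quantile normalization, a common median, no filter, no trend, robust eBayes and the compared groups alone (adjusted p up to 0.0847), which makes 11 of 16 alternatives. HoxA9+Meis1 differed from HoxA9 by 3.71 ± 1.16, not called (adjusted p = 0.0906), and by 5.26 without clone 1 (adjusted p = 0.00628). On 1431777_a_at none of the 3 comparisons was called (adjusted p 0.304 to 0.522).

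Hmga2, the AT-hook protein of embryonic and stem cell chromatin, was high in 5 of the 10 cultures. Probe set 1422851_at read 41.2 in MLL-ENL, 9426, 9679 and 2944 in NUP98-NSD1, 68.9, 4311 and 7056 in HoxA9+Meis1, and 46.1, 15.6 and 42.7 in HoxA9. The 3 NUP98-NSD1 clones and HoxA9+Meis1 clones 2 and 3 were high, and the other 5 arrays were all under the filter level. Probe set 1450780_s_at read 474 in MLL-ENL, 9454, 7943 and 3073 in NUP98-NSD1, 749.6, 10043 and 11000.1 in HoxA9+Meis1, and 378, 601 and 731 in HoxA9. Probe set 1450781_at read 243 in MLL-ENL, 3891, 4443 and 1653 in NUP98-NSD1, 401, 3589 and 4477 in HoxA9+Meis1, and 471, 495 and 426 in HoxA9. The same 5 arrays were high on all 3 probe sets, and NUP98-NSD1 clone 3 was the lowest of the 5 on each. The fourth, 1446196_at, read 764, 374 and 402 in NUP98-NSD1 clones and at most 378 elsewhere, and was not called in any comparison (adjusted p 0.207 to 0.946).

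NUP98-NSD1 clones exceeded HoxA9 clones in Hmga2 signal by 6.64 ± 1.27 on 1422851_at (adjusted p = 0.00377), 3.40 ± 0.86 on 1450780_s_at (adjusted p = 0.0140) and 2.64 ± 0.74 on 1450781_at (adjusted p = 0.0221). Because all HoxA9 arrays were under the filter level on 1422851_at, its signal there was at least 16.2-fold higher in NUP98-NSD1, a bound set after the values were seen. By the same bound, the MLL-ENL array was at least 16.2-fold lower than NUP98-NSD1 on that probe set and at least 7.71-fold lower on 1450781_at. Probe set 1422851_at passed the filter through the NUP98-NSD1 clones and HoxA9+Meis1 clones 2 and 3 alone, so a difference from HoxA9 was built in. Its call held under all 18 alternatives tried (adjusted p 0.000210 to 0.0170). The call on 1450780_s_at was lost under robust eBayes (adjusted p = 0.0508). That on 1450781_at was lost on leaving out NUP98-NSD1 clone 1 or 2 or any single HoxA9 clone (2.38 to 2.69, adjusted p 0.0511 to 0.0747). It was also lost without an eBayes trend.

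NUP98-NSD1 and HoxA9+Meis1 clones differed in Hmga2 by 2.15 ± 1.27, 0.48 ± 0.86 and 0.69 ± 0.74 in the same order, none called (adjusted p 0.222 to 0.703). HoxA9+Meis1 and HoxA9 differed by 4.48 ± 1.27, 2.93 ± 0.86 and 1.95 ± 0.74, also not called (adjusted p 0.0636 to 0.165). The first of these was against HoxA9 readings under the filter level, and the bound was at least 3.64-fold. In HoxA9+Meis1 clone 1 the 3 probe sets were at least 10.8, 12.9 and 8.35 times below the nearer sister clone, as ratios of signal + 32. Without that clone the differences from HoxA9 were 6.41 (at least 13.8-fold, adjusted p = 0.000328), 4.18 (adjusted p = 0.00106) and 3.03 (adjusted p = 0.00277). Without it, NUP98-NSD1 minus HoxA9+Meis1 was 0.23, -0.77 and -0.39, none called (adjusted p 0.230 to 0.789).

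The step of HoxA9+Meis1 clone 1 at Hmga2 and Hmgn3 was shared by few genes: 152 kept probe sets (0.491%) lay at least 4-fold below both sister clones there, and 23 (0.0742%) with readings under the filter level set to it. Of the 19 HMG probe sets, 5 were in both counts. The SD of log2 among HoxA9+Meis1 clones for Hmga2 1422851_at, 3.36, was exceeded by 6 of 30983 probe sets, with the reading of clone 1 under the filter level. B cell markers summed to 12875 in clone 1, 9871 in clone 2 and 3192 in clone 3, so that their order was the reverse of that of Hmgn3 and of Hmga2 1422851_at. None of the 6 kept B cell markers was called between HoxA9+Meis1 and HoxA9. Of all 14234 genes only 8.66% were called there, so 0 of 6 says little. The pre-B receptor gene Vpreb1 read 3731, 2893 and 317 in clones 1 to 3. Their part in the Hmga2 and Hmgn3 values was not tested.

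Among NUP98-NSD1 clones, the mast cell markers summed to 213838, 188293 and 40933 in clones 1 to 3. Clone 3 was lowest there and lowest on every Hmga2 probe set except 1446196_at. Of 6 kept mast cell markers, 4 were called higher in NUP98-NSD1 than in HoxA9 clones, against 13.2% of all 14234 genes. These were Cpa3, Cma1, Fcer1a and Ms4a2. The same 4 were called higher than in HoxA9+Meis1 clones, against 14.2% of all genes. Tpsb2 and Tpsab1 were not called, and Tpsb2 averaged 265 to 307 over the 4 groups, under the filter level. Fcer1a averaged 307 in HoxA9+Meis1 and 242 in HoxA9 clones, also under that level. The HoxA9+Meis1 clones with high Hmga2 had mast cell sums of 2929 and 5461. The part of mast cell RNA in the NUP98-NSD1 values was not tested.

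Hmgb1, the most abundant DNA-bending HMG-box protein, is covered by 5 probe sets that are also annotated to Gm21596, 1 of them (1448235_s_at) to 4932431P20Rik as well. Probe set 1435324_x_at read 95157 in MLL-ENL, 74294, 91470 and 92902 in NUP98-NSD1, 105771, 99954 and 102292 in HoxA9+Meis1, and 90799.7, 87271 and 83534 in HoxA9. Probe set 1425048_a_at read 61513 in MLL-ENL, 67217, 64878 and 64192 in NUP98-NSD1, 81702, 77196 and 72397 in HoxA9+Meis1, and 68176, 68543 and 72280.2 in HoxA9. On both, the HoxA9+Meis1 clones were the highest, without overlap with the other arrays. Over the 5 probe sets, the highest array exceeded the lowest by 1.26 to 1.42 times.

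These small Hmgb1 differences were called against HoxA9+Meis1 on 2 of 5 probe sets. NUP98-NSD1 was -0.26 ± 0.09 on 1435324_x_at (adjusted p = 0.0461) and -0.24 ± 0.07 on 1425048_a_at (adjusted p = 0.0230). With arrays set to a common median they were -0.11 and -0.08 and not called. With quantile normalization they were larger, -0.54 and -0.40, and called (adjusted p = 0.000315 and 0.00582). Under that setting NUP98-NSD1 was also called lower than HoxA9, by -0.43 and -0.40 (adjusted p = 0.00124 and 0.00652). The Hmgb1 result thus moved with the scaling in both directions. The call on 1435324_x_at was lost without NUP98-NSD1 clone 1 or any single HoxA9+Meis1 clone (-0.16 to -0.28, adjusted p 0.0862 to 0.135), and that on 1425048_a_at without NUP98-NSD1 clone 2 or HoxA9+Meis1 clone 1 or 2 (-0.19 to -0.23, adjusted p 0.0599 to 0.102). HoxA9+Meis1 against HoxA9 was 0.24 and 0.14, not called.

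Hmgb2, an HMG-box protein of dividing cells, was similarly level. Probe set 1437313_x_at read 62360 in MLL-ENL, 69135, 69444 and 71922 in NUP98-NSD1, 60690.2, 57430 and 56136 in HoxA9+Meis1, and 60864, 66151 and 66284 in HoxA9. NUP98-NSD1 clones were highest and HoxA9+Meis1 clones lowest. NUP98-NSD1 exceeded HoxA9+Meis1 by 0.27 ± 0.07 (adjusted p = 0.0108), which was not called after a common median (0.43, adjusted p = 0.0681) or quantile normalization (0.14, adjusted p = 0.116). The dimmer 1438307_at, at 1152 to 2279, ran the other way, with -0.52 ± 0.20 against HoxA9+Meis1 and -0.53 ± 0.20 against HoxA9, neither called (adjusted p = 0.0763 and 0.0734). The third, 1452534_a_at, differed by 0.28 ± 0.11 from HoxA9+Meis1 (adjusted p = 0.0856), so the Hmgb2 probe sets disagreed in direction.

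Hmgb3 stood apart in the HoxA9+Meis1 clones and on the MLL-ENL array. It read 9138 in MLL-ENL, 18650, 17663 and 14922 in NUP98-NSD1, 26640, 28137 and 28666 in HoxA9+Meis1, and 19502, 20652 and 18814 in HoxA9. The HoxA9+Meis1 clones were highest, the HoxA9 and NUP98-NSD1 clones followed without overlap, and MLL-ENL was lowest. Hmgb3 was 0.50 ± 0.09 higher in HoxA9+Meis1 than in HoxA9 clones (adjusted p = 0.0103), the only HMG probe set called in that comparison. It was -0.71 ± 0.09 in NUP98-NSD1 against HoxA9+Meis1 (adjusted p = 0.000491). NUP98-NSD1 against HoxA9 was -0.21 ± 0.09, not called (adjusted p = 0.122), and -0.02 with a common median (adjusted p = 0.927). The nearest clones of these groups read 18650 and 18814. Leaving out any single clone left both calls in place. Over 18 alternatives HoxA9+Meis1 minus HoxA9 ranged over 0.44 to 0.54, and its call was lost only without an intensity trend (adjusted p = 0.0802).

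**Figure D3:**
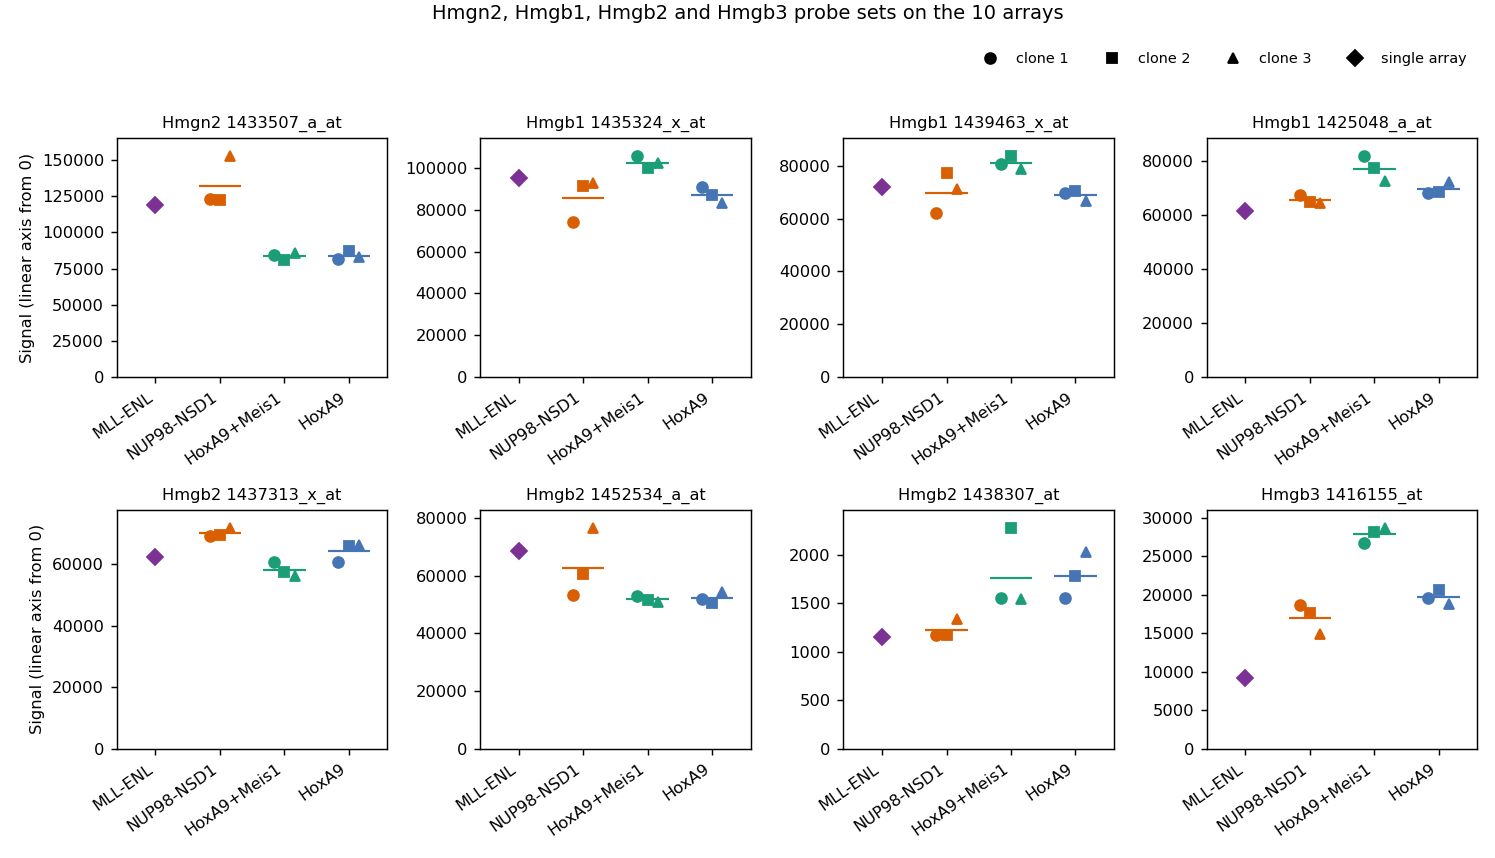
Signal (y axis, linear from 0) of 8 probe sets of Hmgn2, Hmgb1, Hmgb2 and Hmgb3 on each of the 10 arrays, by oncogene, with clones as symbols and group means as lines. Hmgn2 is high on the NUP98-NSD1 and MLL-ENL arrays, Hmgb3 is highest in HoxA9+Meis1 and lowest in MLL-ENL, and Hmgb1 and Hmgb2 are nearly level. The Hmgn2 and Hmgb1 probe sets also carry other symbols.

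The spread over the 10 arrays was wide for Hmgn1, Hmgn3 and the Hmga2 probe sets other than 1446196_at. It did not follow the families, since the Hmgn2 probe set lay within the range of the Hmgb probe sets. The ratio of 1446196_at is only a lower bound, so that probe set cannot be placed against them. With readings under the filter level set to 369, a rule chosen after the values were seen, the highest signal of Hmgn1 exceeded the lowest by 75.4 to 178 times, all from readings above that level. The ratio was at least 34.8 and at least 12.6 for the 2 Hmgn3 probe sets. For Hmga2 it was 29.1 on 1450780_s_at, at least 26.2 on 1422851_at, at least 12.1 on 1450781_at and at least 2.07 on 1446196_at. For Hmgb2 the ratio was 1.28 to 1.98, for Hmgb3 3.14 and for the Hmgn2 probe set 1.88. The median ratio over all kept probe sets was 2.13 by this rule. Of all kept probe sets, 99.4% had a smaller ratio than Hmga2 1422851_at and 2.12% a smaller one than 1416176_at, annotated to Hmgb1 with Gm21596.

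The genes with the most similar pattern over the 10 arrays were sought for the widest-ranging probe set of each family, among 14233 genes, with Pearson's r as a description. For Hmgn3 1434875_a_at they were Cdc42ep1 (r = 0.972), Nae1 (r = 0.913), Setd3 (r = 0.895), Mthfd2l (r = 0.894) and Cmtm4 (r = 0.892). For Hmga2 1422851_at they were Ppp1r13b (r = 0.946), Dusp16 (r = 0.944), Marchf6 (r = 0.935), Runx3 (r = 0.932) and Ppm1e (r = 0.931). For Hmgb3 they were Ktn1 (r = 0.982), Tet1 (r = 0.981), Zdhhc8 (r = 0.976), Rcor2 (r = 0.969) and Cd2bp2 (r = 0.967). The 10 arrays fall into 4 groups, so each r largely follows the group and clone pattern of the member it was chosen for. It does not measure the size of a change. Nae1 spanned only 9810 to 11770 and Marchf6 11814 to 15437, while Mthfd2l spanned 571 to 3955 and Ppp1r13b 473 to 3433. Cdc42ep1 (281 to 659), Dusp16 (24.3 to 949) and Ppm1e (16.3 to 821) were under the filter level on several arrays. Tet1 encodes an enzyme that oxidizes methylated DNA, and Rcor2 a corepressor of histone demethylase complexes.

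**Figure D4:**
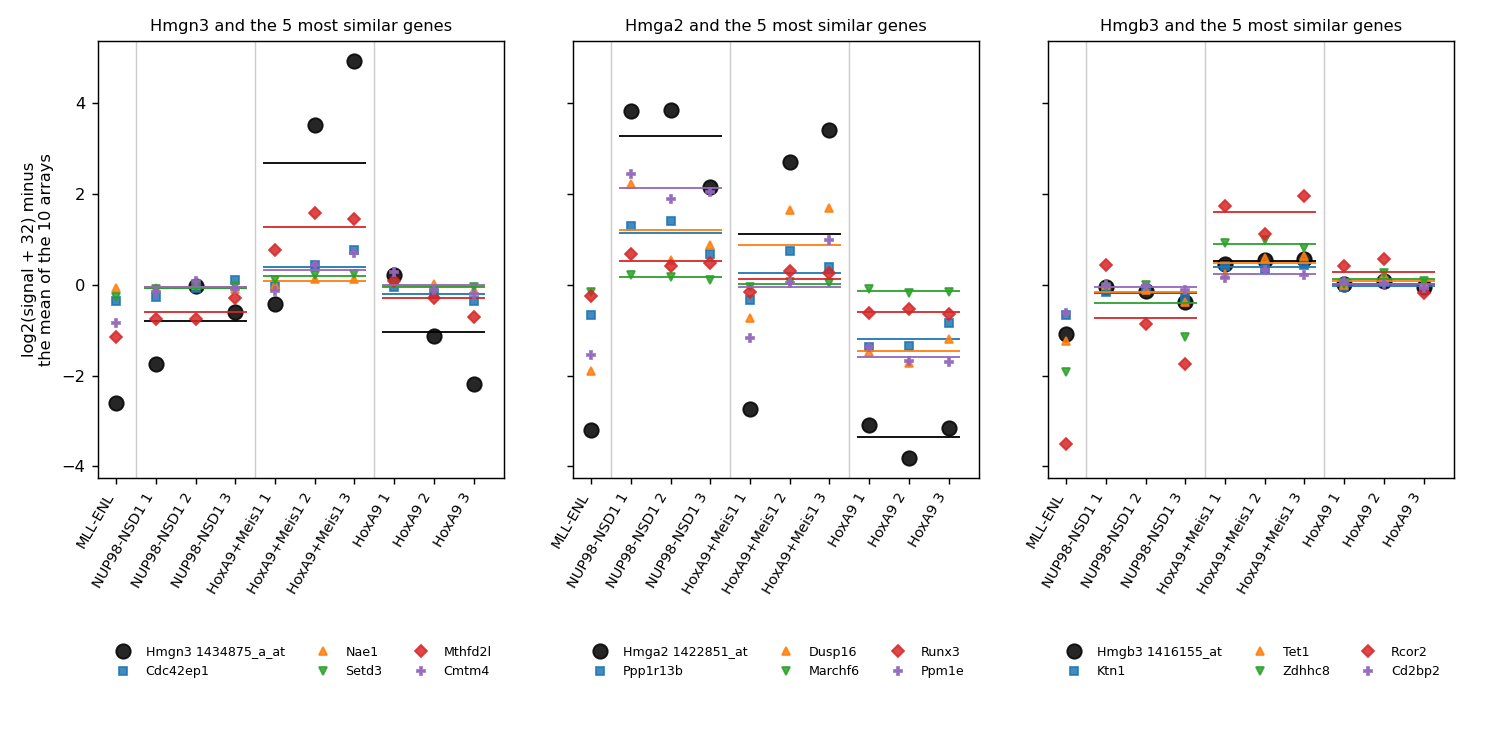
Hmgn3, Hmga2 and Hmgb3 (black) with the 5 genes of highest Pearson r to each, as log2(signal + 32) minus the mean of the 10 arrays (y axis) on each array (x axis), with group means as lines. Pearson's r lies between 0.892 and 0.982, and the similar genes do not keep the exact order of arrays.

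Other genes of the HMG-box and HMGN families outside the members were followed by the brightest kept probe set of each gene, 17 of 22 listed. In NUP98-NSD1 against HoxA9, 2 were higher and 2 lower, against 13.2% and 18.2% of all 14234 genes. Against HoxA9+Meis1, 1 was higher and 5 lower (14.2% and 18.5% of all), and between HoxA9+Meis1 and HoxA9, 1 was higher and 1 lower (4.18% and 4.48% of all, 8.66% together). Sox4, a progenitor transcription factor with an HMG box, averaged 39143 in NUP98-NSD1 and 67670.3 in HoxA9+Meis1 clones, -0.91 ± 0.29 (adjusted p = 0.0368). Hmgn5, the family member that also unfolds linker-histone chromatin, averaged 13774 ± 1354 in NUP98-NSD1 and 17786 ± 253 in HoxA9 clones (SD, n = 3 each), -0.37 ± 0.09 (limma adjusted p = 0.0140).

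Linker histones, which HMGN proteins displace, and other architectural chromatin proteins had 16 kept genes. Against HoxA9, 7 were higher and 2 lower in NUP98-NSD1, and 5 were higher and 0 lower in HoxA9+Meis1, and NUP98-NSD1 against HoxA9+Meis1 gave 4 and 4. Of all genes, 13.2% and 18.2% were called higher and lower in the comparison of NUP98-NSD1 with HoxA9, 14.2% and 18.5% with HoxA9+Meis1, and 4.18% and 4.48% in HoxA9+Meis1 against HoxA9. The histone variant gene Macroh2a1 averaged 80634 in NUP98-NSD1, 67154 in HoxA9+Meis1 and 37541 in HoxA9 clones, 1.10 ± 0.11 and 0.84 ± 0.11 above HoxA9 (adjusted p = 0.000103 and 0.00128). The linker histone gene H1f4 was 1.00 higher in NUP98-NSD1 than in HoxA9+Meis1 (adjusted p = 0.0124), and H1f2 was not called in any comparison.

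Genes that act on or with HMG proteins, such as the Lin28 and let-7 axis upstream of Hmga2 and the Set complex partners of Hmgb2, had 17 kept members. NUP98-NSD1 against HoxA9 gave 8 higher and 3 lower, NUP98-NSD1 against HoxA9+Meis1 5 and 5, and HoxA9+Meis1 against HoxA9 1 and 0. The shares of all genes were 13.2% and 18.2%, 14.2% and 18.5%, and 4.18% and 4.48% in the same order. Lin28a 1437752_at read 38.3 in MLL-ENL, 857, 1314 and 2982 in NUP98-NSD1, 342, 196 and 114 in HoxA9+Meis1, and 222, 188 and 198 in HoxA9. The probe set passed the filter through the 3 NUP98-NSD1 arrays alone, so a difference was built in. Lin28a was at least 3.82-fold higher in NUP98-NSD1 than in HoxA9 (fitted log2 difference 2.71 ± 0.52, adjusted p = 0.00387) and than in HoxA9+Meis1 (2.73 ± 0.52, adjusted p = 0.00341). The other kept Lin28a probe set, 1421749_at, read 472, 656 and 2222 in NUP98-NSD1 clones and at most 411 elsewhere. Any relation of Lin28a to Hmga2 was not tested.

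Anp32a, a partner of the Set complex, was -2.27 ± 0.07 in NUP98-NSD1 against HoxA9 on 1450407_a_at (adjusted p = 7.57e-08). That probe set read 4883 on the MLL-ENL array and 6665 to 6868 in NUP98-NSD1, against 27436 to 33231 in the other clones, the same division of arrays as in the hybridization controls. The other Anp32a probe sets spanned less, 4899 to 8800 on 1421918_at and 9737 to 15073 on 1434555_at.

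Of 9 kept genes for receptors of extracellular HMGB1, 4 were higher and 0 lower in NUP98-NSD1 than in HoxA9 clones, and 3 were higher and 1 lower in HoxA9+Meis1 than in HoxA9 clones. Between NUP98-NSD1 and HoxA9+Meis1, 1 was higher and 1 lower. All genes gave 13.2% and 18.2%, 4.18% and 4.48%, and 14.2% and 18.5% in these 3 comparisons. The immune checkpoint receptor gene Havcr2 averaged 1110 in NUP98-NSD1, 633 in HoxA9+Meis1 and 67.3 in HoxA9 clones, whose arrays were all under the filter level. It was at least 2.64-fold higher in NUP98-NSD1 and at least 1.59-fold higher in HoxA9+Meis1 (adjusted p = 0.000461 and 0.00511). The Havcr2 probe set passed the filter through the NUP98-NSD1 and HoxA9+Meis1 arrays alone, so a difference from HoxA9 was built in. Tlr4 was 1.56 higher in NUP98-NSD1 than in HoxA9+Meis1 (adjusted p = 0.000101) and -1.21 in HoxA9+Meis1 against HoxA9 (adjusted p = 0.00113).

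Cell cycle genes were kept for 23 genes. NUP98-NSD1 against HoxA9 gave 7 higher and 2 lower, NUP98-NSD1 against HoxA9+Meis1 5 and 4, and HoxA9+Meis1 against HoxA9 3 and 0. Over all genes these shares were 13.2% and 18.2%, 14.2% and 18.5%, and 4.18% and 4.48%. Their summed signal was 683995 in MLL-ENL, 629203 to 717704 in NUP98-NSD1, 647951 to 667767 in HoxA9+Meis1 and 595793 to 602212 in HoxA9 clones.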

How the data were processed

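Total RNA of 10 cultures was measured on Affymetrix mouse genome arrays. The authors deposited 1 intensity per probe set and array. The signal software is not given in the sources used here. Deposited values have the same trimmed mean, 2500, on every array, so they were used as scaled by the authors. Scanner files were not used here, and the number of arrays limits the precision.

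Intensities were taken as log2(signal + 32). Probe sets above the 40th percentile of all values (369) on at least 3 arrays were kept. limma 3.58.1 in R 4.3.3 fitted 4 group means to all 10 arrays (6 residual degrees of freedom), with an intensity trend in eBayes, two-sided tests and Benjamini-Hochberg adjustment over 30983 probe sets. The single MLL-ENL array was not tested. For ranges, clone steps and MLL-ENL counts, readings under 369 were also set to 369, a rule chosen after the data were seen, and the folds are then lower bounds. Same-numbered clones of different groups did not deviate together (r -0.06 to 0.04 over 9 pairs), so clone numbers were not used as a block. The code was tested on simulated data with 50 changed probe sets of each size per comparison. It found 12% of log2 changes of 0.5, 34% to 42% of changes of 1, 58% to 64% of 2 and 86% to 90% of 3. A difference that was not called is therefore not shown to be absent.

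Values on every array are given for each gene's brightest kept probe set and for every probe set called in a comparison. From each list, up to 4 called genes per comparison with the largest differences, and any member of a list whose count is described, may be named. The members and lists were chosen with earlier results of these data known. Genes of a list were matched through gene identifiers, and 14 of the 20 HMG probe sets carry 1 symbol and 6 several. The alternatives covered scaling, offset, filter, probe set type, variance model, samples and single clones. Figures used matplotlib 3.10.9.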

Additional observations from a re-analysis of the deposited data

How the results depend on the processing

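Counts of called HMG probe sets moved with the processing. With quantile normalization, 3 were lower in NUP98-NSD1 than in HoxA9, 1 was higher in NUP98-NSD1 than in HoxA9+Meis1 and 1 was lower in HoxA9+Meis1 than in HoxA9. A common median left 1 higher and 1 lower between NUP98-NSD1 and HoxA9+Meis1, and no filter left 2 lower there. Without _x_at, _s_at and _a_at probe sets only 6 were tested, with 2 higher in NUP98-NSD1 than in HoxA9, and 0 higher and 1 lower than in HoxA9+Meis1. Without an eBayes trend 4 were higher in NUP98-NSD1 than in HoxA9, 1 higher and 1 lower than in HoxA9+Meis1, and 0 higher in HoxA9+Meis1 than in HoxA9. Robust eBayes left 3 higher in NUP98-NSD1 than in HoxA9, with the calls of Hmgn1 and of Hmga2 1450780_s_at lost. Fitting the compared groups alone left 1 lower in NUP98-NSD1 than in HoxA9+Meis1 and gave 3 higher in HoxA9+Meis1 than in HoxA9. Leaving out 1 clone gave 3 to 6 higher in NUP98-NSD1 than in HoxA9, 1 to 3 lower in NUP98-NSD1 than in HoxA9+Meis1, and 1 to 6 higher in HoxA9+Meis1 than in HoxA9. The 3 came without NUP98-NSD1 clone 2, the 1 lower without HoxA9+Meis1 clone 2, and the 6 higher without HoxA9+Meis1 clone 1. For all these counts the cause was not tested, except that fewer probe sets or samples entered some fits.

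The clone numbers did not pair the arrays. With the replicate block, 7 HMG probe sets were higher in NUP98-NSD1 than in HoxA9, 2 higher and 3 lower than in HoxA9+Meis1, and 1 was higher in HoxA9+Meis1 than in HoxA9. The lost call was 1435324_x_at, annotated to Hmgb1 and Gm21596 (adjusted p = 0.0793). For the 36 differences of single named probe sets, the alternatives gave 618 values. None of the called differences changed sign. Of values for called differences 190 kept the call and 51 lost it, and of those not called 15 became called. Over all kept probe sets, HoxA9+Meis1 against HoxA9 gave 1051 higher and 1080 lower. It gave 724 and 521 with a common median, 470 and 536 without a trend, 659 and 714 without _x_at, _s_at and _a_at probe sets, 531 and 629 without HoxA9+Meis1 clone 1, 530 and 602 without its clone 2, 624 and 578 without HoxA9 clone 2, and 746 and 652 without HoxA9 clone 3. In NUP98-NSD1 against HoxA9, the 5166 lower became 3293 without HoxA9 clone 2 and 3370 without its clone 3. Against HoxA9+Meis1, the 5315 lower became 3498 without HoxA9+Meis1 clone 1 and 3320 without its clone 2. Readings under 369 were near background and carry little order.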
